A study of Mus musculus with 13 samples.

Results

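The 10 genes described here encode subunits of cohesin and the factor that removes it, and they are *Smc1b*, *Smc1a*, *Smc3*, *Rec8*, *Rad21l*, *Rad21*, *Stag3*, *Stag1*, *Stag2* and *Wapl*. They were chosen by symbol, through the GENCODE M21 name of each gene identifier, and all 10 had a row among the 55335 genes of the count table. The libraries are 3′ Tag-Seq libraries, in which each read starts near the polyadenylated end of a transcript, made from germ cells of female mouse embryos at E17.5, when fetal oocytes are in meiotic prophase. The study asked what loss of the glucocorticoid receptor GR, encoded by *Nr3c1*, changes in these cells. Each library holds the cells of 1 embryo, sorted by flow cytometry for GFP from a *Pou5f1* (OCT4) transgene, labelled Tg(Pou5f1-EGFP)2Mnn, which all 13 embryos carried.

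In the constitutive cross, 3 WT embryos were compared with 3 KO embryos that were homozygous for an allele of *Nr3c1* lacking exon 3 in the whole body, and the labels give the strain Nr3c1tm1.1Jda for this cross. In the conditional cross, 3 flox embryos homozygous for the floxed exon 3 allele and without Cre were compared with 4 cKO embryos. The cKO embryos carried in addition the tamoxifen-dependent Cre allele Pou5f1tm1.1(cre/Esr1*)Yseg, which is driven from *Pou5f1* and so acts in germ cells, and the labels list this strain for the conditional cross as a whole. All dams of the conditional cross received 125 μg/g tamoxifen at E10.5, so flox and cKO embryos share that exposure and WT and KO embryos do not. Which embryos were littermates is not given in the sources used here, so p-values measure the spread between these embryos.

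Cohesin is a ring that holds sister chromatids together and shapes chromosome loops. The ring is closed by SMC3, an SMC1 subunit and a kleisin, and a STAG protein binds the kleisin. Most dividing cells use SMC1A, the kleisin RAD21 and STAG1 or STAG2. Meiotic cells add SMC1B, the kleisins REC8 and RAD21L, and STAG3, and these form the base of the chromosome axis on which homologs synapse and recombine. In oocytes cohesion laid down before birth has to last until ovulation, and WAPL opens the ring and takes cohesin off chromatin.

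Total counts per library ran from 2048706 to 3674989, and 1 count corresponded to 0.272 to 0.486 CPM (counts scaled to the size of the library with TMM factors, the unit of every level given here unless another is named). All 8 oocyte markers (*Ddx4*, *Dazl*, *Sycp1*, *Sycp2*, *Mael*, *Figla*, *Hormad1* and *Taf7l*) were detected, and together they stood at 8314 to 12737 CPM in the 13 libraries. The summed level of 12 markers of fetal ovary somatic cells was 119 to 156 CPM in WT, 92.2 to 134 in KO, 137 to 272 in flox and 155 to 288 in cKO libraries. The 3 endothelial markers together were at 1.92 to 26.1 CPM in KO, below the 30.0 to 38.6 CPM of WT libraries, and at 35.9 to 64.9 in flox and 43.3 to 82.7 in cKO libraries. The 7 erythroid markers summed to 86.2 to 238 CPM in WT, 0 to 156 in KO, 284 to 1263 in flox and 78.4 to 199 in cKO libraries. Every flox library was thus above every cKO library. The highest was flox replicate 1, and *Hbb-bh1* and *Alas2* were at 0 in all libraries. The 4 macrophage markers summed to 0.454 to 2.45 CPM in WT, 3.90 to 8.65 in KO, 0 to 5.57 in flox and 0 to 11.9 in cKO libraries. *Nr3c1* itself had a mean of 44.6 ± 14.8 CPM among WT and 44.6 ± 25.3 CPM among KO embryos (SD, n = 3 in either group), and of 65.8 ± 33.3 in flox (n = 3) and 52.6 ± 18 in cKO (n = 4). Tags come from the 3′ end of the transcript and not from exon 3, so these *Nr3c1* values do not show whether exon 3 was deleted. In single-cell 3′ libraries from ovaries at an earlier embryonic stage, the study reported less total *Nr3c1* transcript in every KO cell type. The WT and KO means here did not differ in this way, and the reason was not tested. By immunofluorescence the study found GR protein lost from KO ovaries at E17.5, and it reported loss by immunoblot and qRT-PCR at earlier stages.

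Promoter sequences were read for 8 of the 10 genes from RefSeq (GRCm38.p6), as windows of 300 bases from 250 before to 50 after the annotated start, and *Rad21* and *Stag2* are named only. They are shown because the gene of a transcription factor was targeted in the KO and cKO groups. The SMC1 paralogs and the meiotic *Stag3* and *Rad21l* also differed widely in level. The windows were searched on both strands for the GR half-site AGAACA, its full palindrome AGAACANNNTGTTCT, the E-box CACGTG and the E2F-type element TTCCCGC, which do not overlap one another apart from the half-site within the palindrome. TTCCCGC was in 4 of the 8 windows (*Smc1b*, *Smc1a*, *Stag3* and *Stag1*), against 4.6% of the 32851 windows in the table. The 32851 windows were not matched to the 8 in base composition. AGAACA was in 2 windows, once in *Rec8* and at 2 places in *Rad21l*, against 19.0% of all windows, and CACGTG was in 1 (*Stag3*) against 7.15%. The palindrome was in none of the 8 windows and in 0.00913% of all. In the 4 windows printed here 5′ to 3′ on the strand of the gene, capitals mark the E2F-type element, the E-box or, as its reverse complement, the GR half-site. They lie at chr15:85131908-85132207 (minus strand) for *Smc1b*, chrX:152016178-152016477 (plus) for *Smc1a*, chr5:138280259-138280558 (plus) for *Stag3* and chr2:151668484-151668783 (minus) for *Rad21l*.
Smc1b: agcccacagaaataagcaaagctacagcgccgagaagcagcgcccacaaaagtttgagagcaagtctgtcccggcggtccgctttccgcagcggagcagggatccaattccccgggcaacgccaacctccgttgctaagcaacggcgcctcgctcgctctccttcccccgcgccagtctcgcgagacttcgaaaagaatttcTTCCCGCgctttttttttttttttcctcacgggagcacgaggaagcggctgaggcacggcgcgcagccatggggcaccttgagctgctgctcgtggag
Smc1a: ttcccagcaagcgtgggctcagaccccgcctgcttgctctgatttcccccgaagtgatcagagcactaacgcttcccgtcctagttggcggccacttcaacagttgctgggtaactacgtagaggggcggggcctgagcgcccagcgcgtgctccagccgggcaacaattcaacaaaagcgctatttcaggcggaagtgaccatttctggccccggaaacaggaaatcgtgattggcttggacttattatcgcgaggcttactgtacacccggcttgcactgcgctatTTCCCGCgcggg
Stag3: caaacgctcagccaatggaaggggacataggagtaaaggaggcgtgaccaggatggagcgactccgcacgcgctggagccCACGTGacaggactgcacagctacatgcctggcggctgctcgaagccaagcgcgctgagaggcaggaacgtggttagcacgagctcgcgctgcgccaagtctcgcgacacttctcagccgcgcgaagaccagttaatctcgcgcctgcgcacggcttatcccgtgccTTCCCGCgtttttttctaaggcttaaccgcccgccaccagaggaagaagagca
Rad21l: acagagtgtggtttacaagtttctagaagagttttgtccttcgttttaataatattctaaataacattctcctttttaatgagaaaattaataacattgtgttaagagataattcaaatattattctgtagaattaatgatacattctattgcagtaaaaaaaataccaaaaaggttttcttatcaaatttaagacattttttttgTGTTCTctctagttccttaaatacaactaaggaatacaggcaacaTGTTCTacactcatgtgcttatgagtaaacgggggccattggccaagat

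*Rad21l* stood apart from the other members in base composition. Its window held 2 CpG dinucleotides and 29.0% G and C. The other 7 windows held between 18 (*Rec8*) and 43 (*Stag1*) CpGs and 58.3% to 73.7% G and C. The median over all windows was 7 CpGs and 52.7% G and C. The *Smc1b*, *Smc1a* and *Stag3* windows shown held 29, 23 and 30 CpGs.

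*Smc1b*, the meiotic SMC1 subunit, was by far the most abundant cohesin transcript and the 10th highest of 13086 genes tested, with a mean of 3948 ± 828 CPM (SD, n = 13). *Stag3* (378 ± 81.7), *Smc1a* (337 ± 108), *Wapl* (326 ± 87.5), *Smc3* (279 ± 60.3) and *Stag1* (249 ± 51.8) formed a middle group of similar mean CPM. *Rad21* (151 ± 37.4) and *Stag2* (106 ± 59.6) were lower, *Rad21l* was at 34.8 ± 20.2 and *Rec8* at 1.24 ± 2.62 CPM. In these sorted populations, fewer cells expressing a gene and less RNA of that gene per cell cannot be told apart.

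Per kilobase of the longest annotated coding transcript the order was *Smc1b* (975 CPM per kilobase), *Stag3* (89.7), *Smc1a* (71.9), *Smc3* (57.4), *Wapl* (51.4), *Stag1* (40.3), *Rad21* (38.3), *Rad21l* (21), *Stag2* (17.2) and *Rec8* (0.566). On this scale *Smc1b* exceeded *Stag3* in 13 of 13 libraries, and *Stag2* exceeded *Rec8* in all 13. The neighbours in between were not in the same order in every library. *Stag3* was above *Smc1a* in 11 libraries, *Smc1a* above *Smc3* in 10, *Smc3* above *Wapl* in 9, and *Wapl* above *Stag1* in 11. *Stag1* was above *Rad21* in 8 libraries, *Rad21* above *Rad21l* in 11, and *Rad21l* above *Stag2* in 8. The ranges of each of these 7 pairs overlapped. The number of 3′ tags per molecule is not set by transcript length, so the order per kilobase is not a truer scale than CPM here. The deposited gene lengths are whole intervals with introns, for *Stag1* 361578 bp with 5 overlapping genes. Reads outside the spliced transcript may therefore be among the counts. *Rad21l* and *Stag2* change places between the scales, as do *Smc3* and *Wapl*. Values are given below as CPM, and both scales where genes are set against each other.

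**Figure D1:**
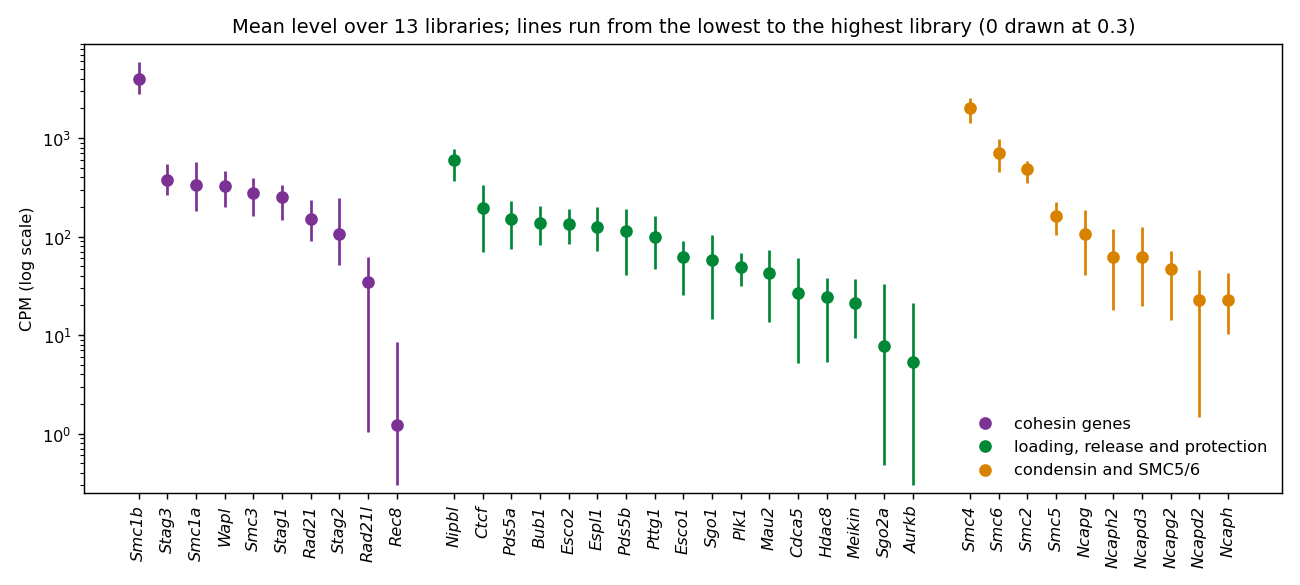
Mean level in CPM (log axis) of the cohesin genes (purple), the genes of cohesin loading, release and protection (green) and condensin and SMC5/6 genes (orange) over the 13 libraries. Lines run from the lowest to the highest library, and a library at 0 is drawn at 0.3. *Smc1b* at 3948 CPM and *Smc4* at 2011 CPM stand above the rest, and *Rec8* at 1.24 CPM is the lowest gene drawn.

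The ring-forming SMC subunits were well counted in all groups. *Smc1b* (ENSMUSG00000022432.7, mm10 chromosome 15, 85064689 to 85131964, minus strand) had 6611 to 15975 counts per library. It was at 3949, 4285 and 4344 CPM in the WT embryos and at 3695, 5976 and 3694 CPM in the KO embryos. In the conditional cross it was at 2794, 3346 and 4519 CPM in flox and at 3747, 4617, 3087 and 3267 CPM in cKO. The 3 WT values lay close together and within the range of the KO values, where replicate 2 was the highest of all 13 libraries. The log2 fold change was 0.09 (95% confidence interval -0.43 to 0.61) for KO against WT and 0.05 (-0.44 to 0.54) for cKO against flox. The intervals therefore leave room for a KO level 1.52 times that of WT or a WT level 1.35 times that of KO.

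Its mitotic counterpart *Smc1a* (ENSMUSG00000041133.11, chromosome X, 152016428 to 152062694, plus strand) was at 455, 576 and 283 CPM in WT and at 401, 251 and 182 CPM in KO embryos. Between these groups the log2 fold change was -0.65 (standard error 0.334, interval -1.34 to 0.04), with an unadjusted p of 0.0621 and an adjusted p of 0.849 by the quasi-likelihood test of edgeR, while the exact two-sided permutation p was 0.2. KO and WT embryos were not separated, since KO replicate 1 was above WT replicate 3. In the conditional cross *Smc1a* was at 254, 395 and 352 CPM in flox and at 313, 416, 267 and 241 CPM in cKO, a log2 fold change of -0.11 (-0.75 to 0.53). Here the cKO values spanned the flox range. *Smc3* (ENSMUSG00000024974.10, chromosome 19, 53600398 to 53645833, plus strand), the SMC partner of both, was at 248, 393 and 266 CPM in WT and at 280, 284 and 326 CPM in KO. It was at 315, 213 and 317 CPM in flox and at 300, 311, 207 and 162 CPM in cKO. Its log2 fold changes were -0.03 (-0.66 to 0.61) and -0.20 (-0.79 to 0.39), and both pairs of groups overlapped.

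The meiotic kleisins *Rad21l* and *Rec8* had the lowest mean CPM of the 10 members, while *Rad21* was above *Stag2*. *Rec8* (ENSMUSG00000002324.8, chromosome 14, 55618037 to 55625395, plus strand), the kleisin that carries cohesion through meiosis, had no count in 9 of the 13 libraries. Its counts were 0, 0 and 0 in WT, 0, 0 and 5 in KO, 12, 19 and 0 in flox and 0, 0, 0 and 1 in cKO embryos. In a library with 0 counts, 3 counts are the limit allowed, which is 0.816 to 1.46 CPM, and such limits cover counting error only. The 2 libraries above 10 counts were both flox, and flox replicate 3 had none, so the group was itself split. *Rec8* did not pass the filter on low counts in the fit of all 13 libraries and was the only one of the 10 members not tested there. In the fits in which it was included (no filter on low counts, or 1 library left out), it was not called (edgeR quasi-likelihood test). The transcript of *Rec8* used here has 34 bp of annotated 3′ UTR, *Ipo4* on the opposite strand has its 3′ end 5 bp past that of *Rec8*, so that the genes converge, and *Ipo4* had 100 to 435 counts per library. Whether the position of the tags bears on the *Rec8* counts was not tested.

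*Rad21l* (ENSMUSG00000074704.9, chromosome 2, 151645404 to 151668533, minus strand), the kleisin of meiotic prophase, varied most among the tested members. It was at 46.5, 6.69 and 59.5 CPM in WT and at 31.2, 38.9 and 51.5 CPM in KO. In flox it was at 55.8, 36.4 and 30.1 CPM, and in cKO at 1.04, 61.3, 10.3 and 23.8 CPM. The lowest library, cKO replicate 1, held 3 counts and the highest, cKO replicate 2, held 157, so a single group spanned the whole range. The within-group coefficient of variation was 61.9%, while counting error at its mean count gives 10.6%. Its log2 fold changes were 0.10 (-1.68 to 1.89) and -0.76 (-2.43 to 0.91), the widest intervals among the 9 genes. The coding transcript used for *Rad21l* has 0 bp of annotated 3′ UTR, and the RefSeq model ends 1038 bp further along, and whether tags fell beyond the GENCODE end was not tested.

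*Rad21* (ENSMUSG00000022314.10, chromosome 15, 51962240 to 51991747, minus strand), the kleisin of mitotic cohesin, was at 155, 149 and 115 CPM in WT and at 187, 115 and 185 CPM in KO. The log2 fold change was 0.22 (-0.46 to 0.89), and the groups overlapped. In the conditional cross it was at 164, 154 and 235 CPM in flox and at 151, 90.6, 144 and 123 CPM in cKO. All 4 cKO embryos were below all 3 flox embryos, although the highest cKO value was close to the lowest flox value. Against flox this was a log2 fold change of -0.54 (standard error 0.305, interval -1.17 to 0.09), with an unadjusted p of 0.0908 and an adjusted p of 0.9998 by edgeR's quasi-likelihood test. The two-sided exact permutation test gave p = 0.0571, where 0.0286 is the smallest that its 35 divisions allow. Of all 13086 genes, 2.79% had every cKO library below every flox library.

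*Stag3* (ENSMUSG00000036928.14, chromosome 5, 138280240 to 138312393, plus strand), the meiotic STAG subunit, was at 333, 336 and 386 CPM in WT and at 477, 454 and 438 CPM in KO. All 3 KO embryos were above all 3 WT embryos, which held for 3.79% of all genes. The means were 456 ± 19.6 and 352 ± 29.5 CPM (SD, n = 3 each). Their log2 fold change was 0.38 (-0.18 to 0.94), with an adjusted p of 0.960 (edgeR quasi-likelihood test), and the exact two-sided permutation p was 0.1, below which 20 divisions cannot go. In the conditional cross *Stag3* was at 369, 550 and 325 CPM in flox and at 306, 376, 293 and 267 CPM in cKO, a log2 fold change of -0.42 (-0.94 to 0.10). Flox replicate 2 was the highest of the 13 libraries, and the other flox values lay within the range of cKO. The difference between the effect in the conditional and in the constitutive cross was -0.79 (standard error 0.371, interval -1.56 to -0.03), with an unadjusted p of 0.0428 and an adjusted p of 0.9999 by edgeR's quasi-likelihood test. It was the only member under an unadjusted p of 0.05 in that test, which 4.39% of all genes passed, and it stayed under 0.05 in 4 of the 13 fits that each left out 1 library. Without flox replicate 2 the difference was -0.55.

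*Stag1* (ENSMUSG00000037286.15, chromosome 9, 100597798 to 100959375, plus strand), a mitotic STAG subunit, was at 334, 297 and 235 CPM in WT and at 217, 236 and 211 CPM in KO. The log2 fold change was -0.38 (-0.97 to 0.20), and KO replicate 2 lay just above WT replicate 3. In the conditional cross *Stag1* was at 273, 291 and 317 CPM in flox and at 202, 236, 246 and 147 CPM in cKO. All cKO embryos were again below all flox embryos, which held for 2.79% of all genes. The means were 208 ± 44.6 (SD, n = 4) and 294 ± 22.0 CPM (n = 3). Between them the log2 fold change was -0.50 (standard error 0.263, interval -1.04 to 0.04), with an unadjusted p of 0.0692 and an adjusted p of 0.9998 by edgeR's quasi-likelihood test, and the exact permutation p was 0.0571. The effects in the 2 crosses differed by -0.12 (-0.92 to 0.68).

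*Stag2* (ENSMUSG00000025862.14, chromosome X, 42149317 to 42277185, plus strand), the other mitotic STAG subunit, was at 246, 182 and 68.0 CPM in WT and at 81.0, 158 and 51.5 CPM in KO. It was at 137, 78.6 and 58.2 CPM in flox and at 55.1, 120, 59.1 and 85.9 CPM in cKO. Values spread widely within every group, with a within-group coefficient of variation of 52.9% against 6.24% from counting. Its log2 fold changes were -0.77 (-1.76 to 0.22) and -0.19 (-1.11 to 0.73). *Stag2* and *Smc1a* are the X-linked members and had the most negative log2 fold changes of the 9 genes in KO against WT. The median over 501 X-linked genes tested was -0.04 and over 12260 autosomal genes -0.03. The summed somatic markers spanned a lower range in KO than in WT libraries, 92.2 to 134 against 119 to 156 CPM. So did the endothelial list, at 1.92 to 26.1 against 30.0 to 38.6 CPM, and the erythroid list, at 0 to 156 against 86.2 to 238 CPM. The macrophage list went the other way, at 3.90 to 8.65 CPM in KO against 0.454 to 2.45 in WT. The oocyte list did too, at 10591 to 12737 against 9917 to 10817 CPM. The part of these lists in the *Smc1a* and *Stag2* values was not tested.

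*Wapl* (ENSMUSG00000041408.18, chromosome 14, 34673928 to 34747983, plus strand), the release factor, was at 405, 432 and 337 CPM in WT and at 341, 388 and 461 CPM in KO. It was at 200, 255 and 385 CPM in flox and at 243, 252, 339 and 204 CPM in cKO. Within each cross the values overlapped, with log2 fold changes of 0.02 (-0.59 to 0.63) and -0.11 (-0.68 to 0.46). Between the crosses *Wapl* was lower in the 7 conditional libraries, at 268 ± 69.0 CPM, than in the 6 constitutive ones, at 394 ± 49.4 CPM (SD). The log2 difference was -0.55 (standard error 0.202, interval -0.97 to -0.13), with an unadjusted p of 0.0122 that did not hold after adjustment over all genes (0.789, edgeR quasi-likelihood test). The two-sided exact permutation test over the 1716 divisions gave p = 0.00641 for this gene alone. Flox replicate 3 and cKO replicate 3 lay within the range of the constitutive cross, and the other 5 conditional libraries lay below it. Tamoxifen, the Cre allele, the floxed allele and the litters differ between the crosses and cannot be told apart.

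**Figure D2:**
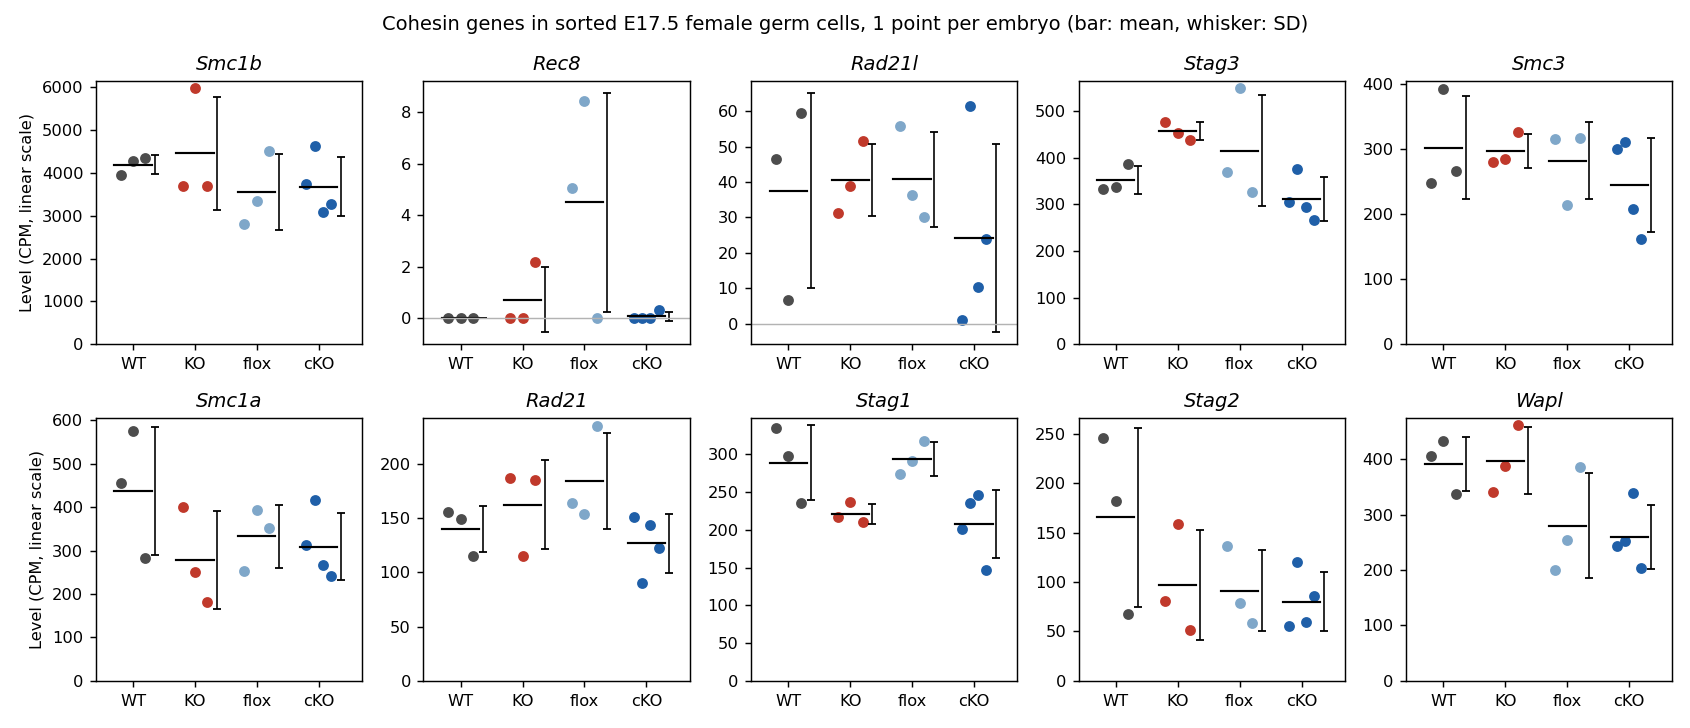
Level of the 10 cohesin genes in CPM (linear axes, each gene on its own scale) in the 4 groups, 1 point per embryo, with a bar at the group mean and a whisker for 1 SD. KO points lie above all WT points for *Stag3* (3.79% of all genes), and cKO points below all flox points for *Rad21* and *Stag1* (2.79% of all genes). The groups of each cross overlap for the other 6 tested genes.

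Across the 9 members tested, none was called in any comparison at an adjusted p of 0.05. edgeR called 0 of all 13086 genes in KO against WT and 0 in cKO against flox (0%), and DESeq2 called 10 and 5 genes in these comparisons, none of them a member. At an unadjusted p under 0.05 there were 0 members in KO against WT, where 5.82% of all genes passed, and 0 in cKO against flox, where 3.19% passed (edgeR quasi-likelihood test). In KO against WT, 4 of the 9 members had a log2 fold change below 0, against 51.9% of all genes, and their median was 0.02 against -0.03. In cKO against flox, 8 of the 9 were below 0, against 50.7% of all genes, and their median was -0.20 against -0.01. *Smc1b* was the 1 member above 0. Between the crosses, 8 of 9 were below 0 (47.2% of all genes), with a median of -0.19 against 0.03, 1 member (*Wapl*) had an unadjusted p under 0.05 (5.59%), and 1 of all genes was called after adjustment (0.00764%). The biological coefficient of variation was 26.8% to 31.3% in 7 of the 9 members, where the trend at their own abundance was 30.9% to 34.7%. It was 41.8% for *Stag2* and 71.7% for *Rad21l*, and the median over all genes tested was 70.0%.

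**Figure D3:**
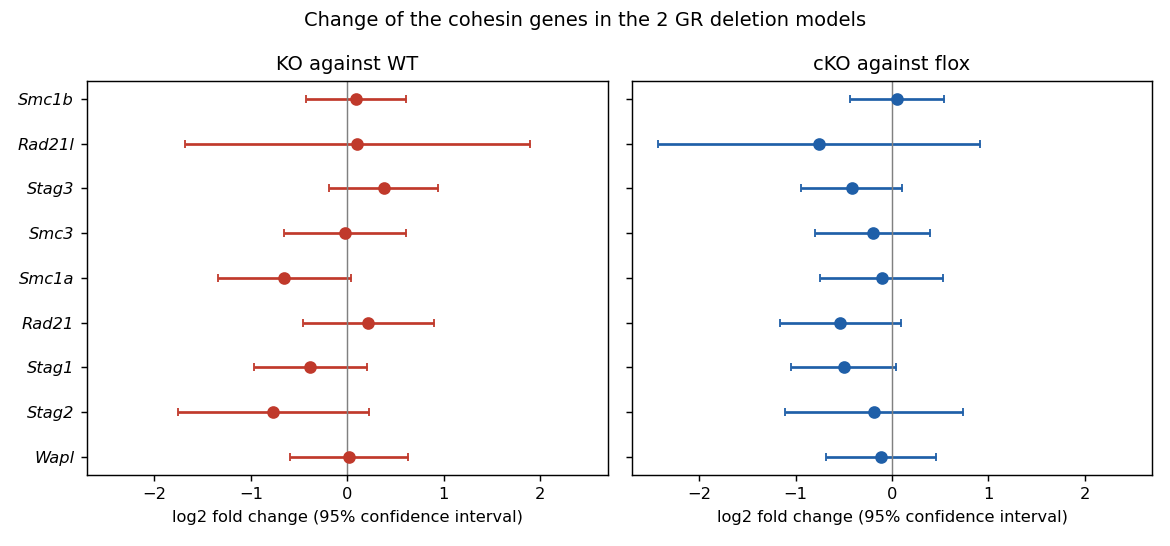
Log2 fold change with its 95% confidence interval from edgeR for the 9 tested cohesin genes, KO against WT (left, red) and cKO against flox (right, blue). Every interval includes 0, the narrowest (*Smc1b*) runs from -0.43 to 0.61 and from -0.44 to 0.54, and the widest is that of *Rad21l*.

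Meiotic and mitotic paralogs were also compared within each library, where the ratio of their counts does not depend on depth. For the SMC1 pair the meiotic gene was ahead in every embryo. *Smc1b* had 8.67, 7.44 and 15.3 times the counts of *Smc1a* in WT and 9.21, 23.8 and 20.3 times in KO embryos. The ratio was 11, 8.48 and 12.9 in flox and 12, 11.1, 11.6 and 13.6 in cKO. It was above 1 in 13 of 13 libraries, with a mean of 12.7 ± 4.73 (SD) and a median of 13.4 per kilobase of transcript. The spread was widest in KO, whose 2 highest values were also the highest of all, and narrowest in cKO. On the log2 scale the mean was 0.72 higher in KO than in WT (exact two-sided permutation test, p = 0.2, adjusted p = 0.610 over the 8 ratio tests) and 0.18 higher in cKO than in flox (p = 0.343, adjusted p = 0.686, exact permutation).

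The counts of the kleisins were in the opposite order, with the limit given above on the annotated 3′ ends of *Rad21l* and *Rec8*. *Rad21l* had 0.299, 0.0449 and 0.517 times the counts of *Rad21* in WT and 0.167, 0.338 and 0.278 times in KO. The ratio was 0.341, 0.236 and 0.128 in flox and 0.00686, 0.677, 0.0716 and 0.194 in cKO. It was below 1 in 13 of 13 libraries, with a mean of 0.254 ± 0.189, and the median per kilobase was 0.566. The log2 difference was 0.38 for KO against WT (exact permutation p = 0.9) and -1.22 for cKO against flox (p = 0.571, exact permutation), both with overlapping groups. For *Rec8* over *Rad21* the log2 differences were 1.13 (exact permutation p = 0.5) and -2.69 (p = 0.229, exact permutation), values that rest on counts of 0 to 19 and on the prior count of 0.5.

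For the STAG subunits the order of the meiotic and the summed mitotic counts differed between libraries. *Stag3* had 0.574, 0.701 and 1.27 times the counts of *Stag1* and *Stag2* together in WT and 1.6, 1.15 and 1.67 times in KO. The ratio was 0.900, 1.49 and 0.867 in flox and 1.19, 1.06, 0.960 and 1.15 in cKO. It was above 1 in 8 of the 13 libraries, in all 3 KO embryos and in 1 of 3 WT embryos, with a mean of 1.12 ± 0.331 and a median of 1.68 per kilobase of transcript. The log2 ratio was 0.86 higher in KO than in WT (exact permutation p = 0.2, adjusted p = 0.610), with WT replicate 3 above KO replicate 2, and 0.05 higher in cKO than in flox (exact permutation p = 0.829, adjusted p = 0.9). None of the 8 ratio tests passed an adjusted p of 0.05.

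**Figure D4:**
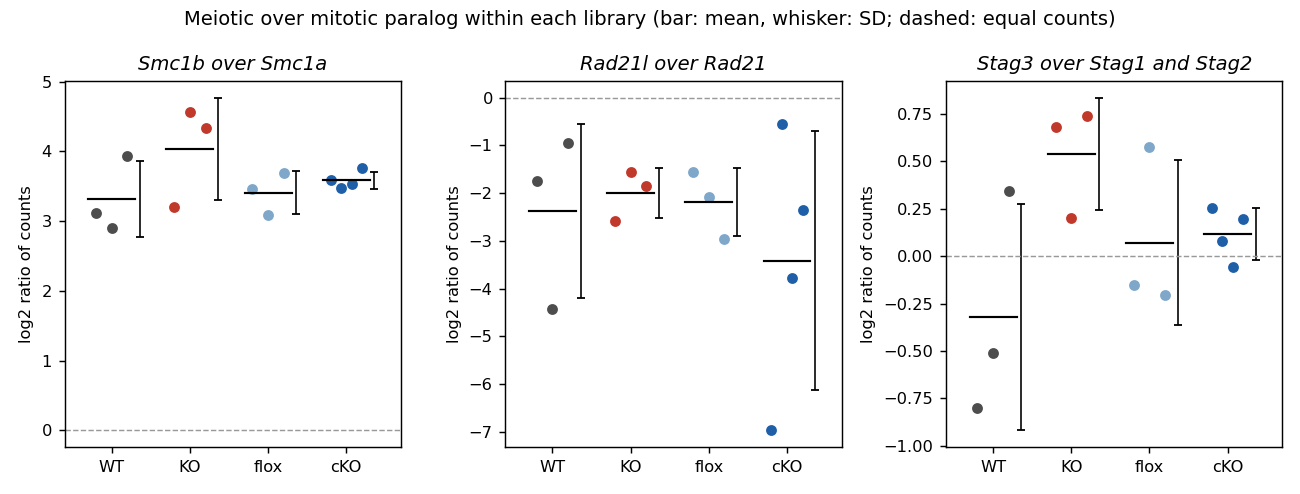
Log2 ratio of the counts of the meiotic to the mitotic paralog in each library, by group, with a bar at the mean, a whisker for 1 SD and a dashed line at equal counts. *Smc1b* over *Smc1a* lies above the line in 13 libraries, *Rad21l* over *Rad21* below it in 13, and *Stag3* over *Stag1* and *Stag2* above it in 8.

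As shares, *Smc1b* made up 92.0% ± 2.28 (SD, n = 13) of the SMC1 counts. The lowest share was 88.2% in WT replicate 2 (95% Wilson interval 87.5 to 88.8) and the highest 96.0% in KO replicate 2 (95.6 to 96.3). *Rec8* and *Rad21l* together made up 19.1% ± 11.6 of the kleisin counts, from 0.682% (0.232 to 1.99) in cKO replicate 1 to 40.4% (35.6 to 45.3) in cKO replicate 2. *Stag3* made up 51.8% ± 7.68 of the STAG counts, from 36.5% (34.4 to 38.6) in WT replicate 1 to 62.6% (60.2 to 64.9) in KO replicate 3. Per kilobase of transcript the shares were 93.0%, 33.8% and 61.0%. Most SMC1 tags thus came from the meiotic gene and most counted kleisin tags from mitotic *Rad21*. Per kilobase the meiotic kleisins passed 50% only in WT replicate 3 (55.2%) and cKO replicate 2 (61.7%). The transcripts used for *Rec8* and *Rad21l* have 34 and 0 bp of annotated 3′ UTR. Whether tags of these 2 genes went uncounted for that reason was not tested, so the kleisin share describes counted tags only.

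The genes that load, acetylate, release and protect cohesin were taken as a list of 18, of which 17 were tested and *Haspin* had 0 counts in all libraries. None was called, as was none of all genes (0%), and none had an unadjusted p under 0.05 in KO against WT or in cKO against flox, where 5.82% and 3.19% of all genes did (edgeR quasi-likelihood test). Their medians were -0.10 and 0.14, against -0.03 and -0.01 over all genes, with 9 and 5 of the 17 below 0, where 51.9% and 50.7% of all genes were. The 3 most abundant were *Nipbl*, which loads cohesin, at 601 CPM, *Ctcf*, which stops loop extrusion at its binding sites, at 195 CPM, and *Pds5a*, a partner of WAPL, at 150 CPM. *Nipbl* averaged 540 ± 82.7 CPM among KO and 679 ± 81.9 CPM among WT embryos (SD, n = 3 in either group), all KO embryos below all WT embryos with the nearest KO and WT embryos almost level (606 CPM in both), with a log2 fold change of -0.33 (-0.91 to 0.25). In cKO it was at 566 ± 152 CPM and in flox at 629 ± 143 CPM, and the groups overlapped. It was the only gene of this list whose groups did not overlap in KO against WT, where 5.67% of all genes had every KO library below every WT library.

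The other SMC complexes, condensin and SMC5/6, were followed through 10 genes, all tested and none called. *Smc4*, an SMC subunit of condensin, was the highest at 2011 CPM and ranked 20th of all genes, followed by *Smc6* (708 CPM) and *Smc2* (483 CPM). *Smc4* averaged 2399 ± 170 CPM among KO, 2231 ± 293 among WT, 1801 ± 153 among cKO and 1682 ± 246 CPM among flox embryos. Its log2 fold changes were 0.10 in either model, and it was lower in the conditional than in the constitutive cross by a log2 difference of -0.41 (standard error 0.156, unadjusted p = 0.0144, adjusted p = 0.811, edgeR quasi-likelihood test). In KO against WT 7 of these 10 genes were below 0 and in cKO against flox 2 were (51.9% and 50.7% of all genes), with none under an unadjusted p of 0.05 (background 5.82% and 3.19%).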

How the data were processed

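Germ cells sorted from 13 single female E17.5 embryos were profiled by 3′ Tag-Seq (QuantSeq FWD). The authors trimmed reads with cutadapt, aligned them to mm10 with STAR 2.6.0 and counted them with featureCounts 1.6.3, and the deposited table gives raw counts per gene. The annotation and strand setting are not given in the sources used here. For all 55335 genes the deposited length is the whole interval from start to end. Counts may thus include reads in introns or in genes inside the interval, which was not tested. The authors' 2 comparison tables (log fold change, mean expression, t, p, adjusted p and B, from edgeR 3.28.1 and limma 3.42.2) were not used.

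Gene names came from GENCODE M21 (54587 of 55335 matched, 748 did not). The members and the gene lists were chosen with earlier results of these data known. Genes named outside the cohesin genes and *Nr3c1* are the 3 with the highest mean in each of the 2 lists and any of them with an unadjusted p under 0.05 within a cross. *Ncapg2* lies outside this rule and was named after its values were seen. Genes were kept by filterByExpr (minimum count 10, total 15), scaled by TMM and tested with the quasi-likelihood F test of edgeR 4.0.16 in R 4.3.3, with all 13 libraries in 1 fit and a mean per group. P-values were adjusted by Benjamini-Hochberg over 13086 genes, with calls at 0.05. Single genes were tested by exact two-sided permutation of log2 CPM (prior count 2), and paralog ratios likewise with a prior count of 0.5. The test was checked on simulated counts with changes larger than any of the tested cohesin genes in this fit. The check therefore does not cover changes of their size. Depth was 2048706 to 3674989 counts per library, and no molecular identifiers are described, so intervals of shares cover counting error only. Alternatives were RLE and upper-quartile scaling, DESeq2 1.42.0, limma voom (3.58.1), other filters, only the groups compared, a replicate block, prior count 5, and leaving out each library.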

Additional observations from a re-analysis of the deposited data

Results flagged for a closer look

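The level of *Rec8* in the 4 cKO embryos was flagged because 1 sample stood away from the rest, with a gap that made up the whole range of the group (a ratio of 1.0, where 0.829 is critical for 4 samples). The counts were 0, 0, 0 and 1, so the flag rests on a single read in cKO replicate 4, at 0.345 CPM. The rate of about 1 in 20 groups flagged by chance holds for normally distributed values and not for such counts. Any group with 1 sample above 0 and the rest at 0 has a ratio of 1.0.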

How the results depend on the processing

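No cohesin gene, regulator or other SMC gene was called under any alternative in KO against WT or in cKO against flox. *Wapl* between the crosses ranged from -0.70 to -0.44 on leaving out each library. Values near 0 changed sign. For KO against WT, *Smc3* became 0.021 with limma voom and 0.0086 without a filter. *Wapl* became -0.0042 with upper-quartile scaling and -0.00096 with at least 10 counts in every library. *Nr3c1* became 0.011 with RLE scaling and with DESeq2, and 0.024 without a filter. With the replicate number as a block, *Rad21l* (-0.0076) and *Wapl* (-0.013) in KO against WT and *Wapl* (0.012) in cKO against flox changed sign. The numbers do not pair the samples (correlations of same-numbered libraries from -0.023 to 0.064). With the block, 0 members were called, 6 of 9 were below 0 in KO against WT, and unadjusted p under 0.05 fell from 761 to 553 and from 418 to 357 genes. Per kilobase of transcript the meiotic share of kleisin counts moved to 33.8% and that of *Stag3* to 61.0%.

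Leaving out 1 library gave -0.17 to 0.22 for *Smc1b*, -0.13 to 0.21 for *Smc3*, -0.38 to 0.61 for *Rad21l*, -0.092 to 0.13 for *Wapl* and -0.56 to 0.28 for *Nr3c1* in KO against WT. In cKO against flox it gave -0.094 to 0.27 for *Smc1b*, -0.29 to 0.031 for *Smc1a*, -0.45 to 0.23 for *Stag2*, -0.30 to 0.20 for *Wapl* and -0.52 to 0.19 for *Nr3c1*. The log2 ratio of *Rad21l* to *Rad21* ran from -0.65 to 1.09 in KO against WT and that of *Stag3* to *Stag1* and *Stag2* from -0.094 to 0.30 in cKO against flox. An unadjusted p under 0.05 appeared for *Smc1a* in KO against WT without WT replicate 3 (0.0186) or KO replicate 1 (0.0114), for *Stag2* there without WT replicate 3 (0.0250) or KO replicate 2 (0.0207), for *Rad21l* in cKO against flox without cKO replicate 2 (0.0483) and for *Stag1* there with DESeq2 (0.0478). The cause was not tested. Over all genes, 15 in KO against WT and 11 in cKO against flox were called without a filter and 10 and 5 by DESeq2, none of them a member. *Rec8* entered the fit without a filter and 7 of those leaving out 1 library. It was not called in any of these. Its unadjusted p was 0.0475 in cKO against flox without flox replicate 3, and for the difference of the KO and cKO effects it was 0.0256 without a filter and 0.0186 to 0.0445 in 5 fits leaving out 1 library, on counts of 0 to 19.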

Other observations

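Among the condensin genes, *Ncapg2*, a subunit of condensin II that was named only after its values were seen, averaged 30.5 ± 14.9 CPM among KO and 64.1 ± 5.68 CPM among WT embryos (SD, n = 3 in either group), with every KO embryo below every WT embryo, which held for 5.67% of all genes. The log2 fold change was -1.07 (standard error 0.541, unadjusted p = 0.0593, adjusted p = 0.847, edgeR quasi-likelihood test). In cKO against flox it was -0.02. The difference between the effects was 1.05 (standard error 0.737, unadjusted p = 0.167, edgeR quasi-likelihood test).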
